A study of Drosophila melanogaster with 8 samples.

Results

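The change from the cellular blastoderm (stage 5) to the gastrula (stage 6-7) was measured in Drosophila melanogaster embryos homozygous for zen[7], an allele of the homeobox gene zerknüllt (zen), which specifies the dorsal extraembryonic tissue of the fly. The comparison took 4 of the 8 RNA-seq libraries of the study: 2 from zen[7] homozygotes at stage 5 and 2 from zen[7] homozygotes at stage 6-7, with all genes included. The other 4, 2 at each stage, came from heterozygous embryos (zen[7]/TM3, ftz-lacZ), which carry the same allele over a balancer chromosome with a lacZ transgene, so no group was wild type. Each library was made from whole staged embryos whose extracts were pooled (N = 100, per the labels' protocols). Homozygotes were picked by PCR, as embryos that lacked the lacZ band and gave a control band from Dtg. How the embryos of a group were divided between its pools is not in the labels, so a p-value here reflects the spread between pools, which may be technical.

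At stage 5 the nuclei of the syncytial embryo are enclosed by membranes that grow in from the surface, while the zygotic genome takes over from RNA that the mother loaded into the egg. During stage 6-7 the mesoderm and the gut primordia fold inwards and the germ band begins to lengthen. Over the same hours the transient gap and pair-rule patterns give way to the lasting patterns of segment polarity and Hox genes, and high Dpp signalling on the dorsal side turns on the amnioserosa program, in which zen acts as a transcription factor.

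The 8 libraries held between 29669956 and 37770105 counts assigned to genes, and 9360 of 17468 genes passed the filter on low counts. Levels are given as CPM, read counts scaled to a common library size with TMM, the trimmed mean of M-values, and a change is the log2 ratio of stage 6-7 over stage 5. A gene was called when its Benjamini-Hochberg adjusted p in edgeR's quasi-likelihood test was under 0.05 over all tested genes. Along the first principal component, which carried 76% of the variance, the stages lay apart, with the 4 stage 5 libraries between -56.2 and -42.1 and the 4 stage 6-7 libraries between 38.9 and 51.1. Replicate 1 of the homozygous stage 5 libraries stood apart at the early end, at -56.2 against -42.1 for replicate 2 and -45.1 for both heterozygous stage 5 libraries. Of 2621 genes called higher at stage 6-7 from the heterozygous libraries alone, 1911 (72.9%) were lower in that library than in replicate 2. Of 2548 genes called lower there, 911 (35.8%) were lower in it. Replicate 1 of heterozygous stage 6-7 also lay towards the early end of its stage. It stood at 38.9, against 48.8 for replicate 2 and 49.7 and 51.1 for the homozygous libraries. Changes that turn on replicate 1 of homozygous stage 5 are given with and without it. Where a rise is given only without replicate 2 of stage 5, leaving out replicate 1 moved it by less than 1.5-fold.

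The zen transcript was itself detected in the homozygotes and fell between the stages. It stood at 154 and 134 CPM in the stage 5 libraries and at 58.9 and 53.8 CPM in the stage 6-7 libraries. Both early libraries lay above both late ones, and zen fell by 1.35 on the log2 scale (SE 0.14, edgeR adjusted p = 2.6e-06). The counts are summed over the gene, so they do not show which part of the zen[7] transcript was read and do not check the genotype.

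Expression changed widely between the stages. In homozygotes 2911 genes (31.1% of those tested) were called higher and 2718 (29.0%) lower at stage 6-7, 60.1% in all, and for 81.1% of tested genes the libraries of the stages did not overlap. These percentages are the background against which each list below is read. Most calls were small: 3145 of the 5629 called genes changed less than 2-fold, and the median size over called genes was 0.89 on the log2 scale.

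Changes of at least 4-fold were called for 326 genes (3.48%) that rose and 351 genes (3.75%) that fell, 7.23% in all. In 67 of these rises and 45 of these falls, 1 stage had 3 counts or fewer in both libraries, so their fitted size depends on the prior count. Among the 6171 genes that averaged 5 CPM or more across these libraries, 90 rose and 176 fell at least 4-fold. Genes that fell at least 4-fold held 2.91% and 2.55% of all CPM over tested genes in the stage 5 libraries and 0.451% and 0.463% in the stage 6-7 libraries. Genes that rose at least 4-fold held 0.0673% and 0.102% at stage 5 and 0.595% and 0.618% at stage 6-7, so even after their rise they were a small share of the RNA.

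The split between rises and falls depended on scaling. With library totals alone in place of TMM, 3638 rises and 1987 falls were called, so that rises made up 64.7% of calls against 51.7% with TMM, and the median over all tested genes moved from -0.002 to 0.195. Changes are therefore stated relative to the TMM scale. Without replicate 1 of stage 5, 2563 rises and 2446 falls were called, and 2463 of the 2911 rises and 2309 of the 2718 falls kept their call. In whole embryos, fewer cells of a type and less RNA per cell cannot be told apart.

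**Figure D1:**
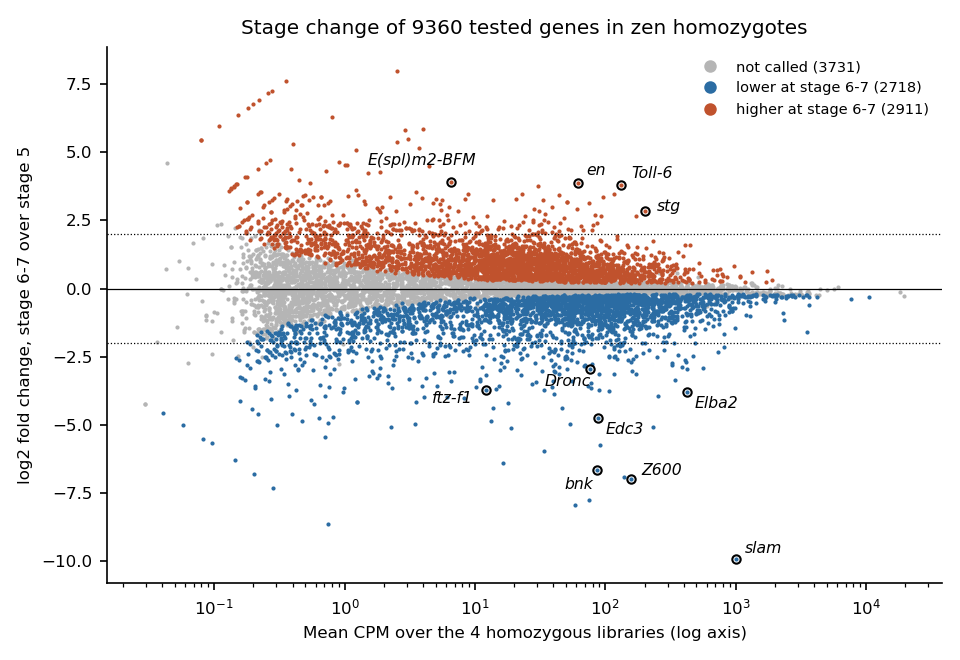
Each point is 1 of the 9360 tested genes, with its mean CPM over the 4 homozygous libraries on the x axis (log axis) and its log2 change from stage 5 to stage 6-7 on the y axis. Genes called higher (2911) and lower (2718) are coloured, dotted lines mark 4-fold, and slam lies alone at the bottom right, at a change of -9.92.

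The transcripts that fell furthest were abundant in the blastoderm and almost gone in the gastrula. They were led by slam, whose protein guides membrane growth at the cleavage furrows during cellularization. In the stage 5 libraries slam stood at 2372 and 1669 CPM, and in the stage 6-7 libraries at 2.32 and 1.82 CPM. No early library came near a late one, and slam fell by 9.92 on the log2 scale (SE 0.26, edgeR adjusted p = 1.5e-09), which is 971-fold.

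The bottleneck gene bnk, which restrains the constriction of the cellularization furrows, went from 210.3 and 134 CPM to 1.67 and 1.70 CPM. dunk, which maintains myosin at those furrows, went from 222 and 133 CPM to 2.86 and 3.79 CPM. For both genes replicate 1 of stage 5 was the higher early library and both early libraries lay far above the late ones. bnk fell by 6.67 (SE 0.284, edgeR adjusted p = 1.11e-07) and dunk by 5.74 (SE 0.295, edgeR adjusted p = 1.16e-06) on the log2 scale.

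All 5 tested genes of a list of cellularization genes fell, with a median log2 change of -5.07. Besides slam and bnk these were nullo, which stabilises the early furrows, halo, a cofactor of lipid droplet transport, and term. nullo stood at only 4.83 and 3.96 CPM at stage 5, then 0.0809 and 0.176 CPM at stage 6-7, a change of -5.07 that became -5.69 without replicate 2 of stage 6-7. halo went from 565 and 389 CPM to 32.8 and 28.6 CPM, and term from 853 and 747 CPM to 141 and 145 CPM. The stages did not overlap for either, and halo fell by 3.96 and term by 2.48 on the log2 scale. The last member, Sry-alpha, is listed at 0 in all 4 libraries, and its annotated exons overlap those of Sry-beta.

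**Figure D2:**
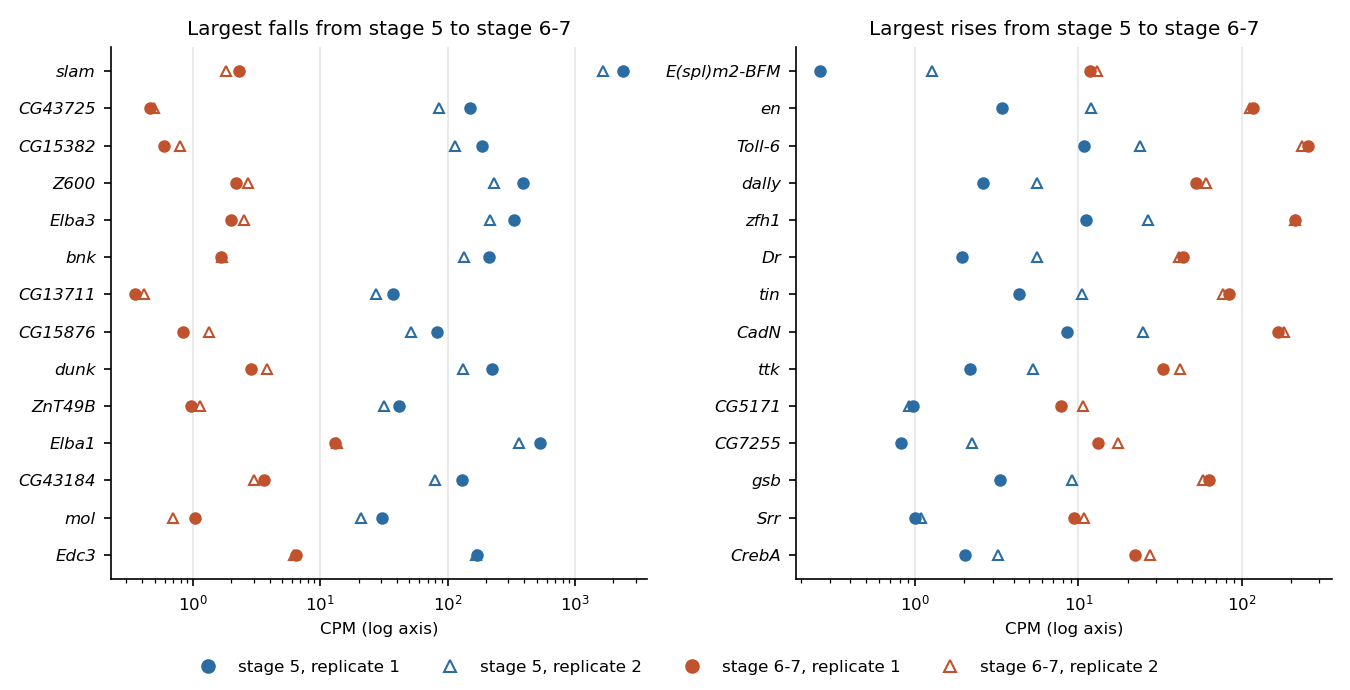
The 14 genes with the largest falls and the 14 with the largest rises, among called genes that averaged 5 CPM or more and did not overlap between stages, are shown with 1 point per library on a log CPM axis, stage 5 and stage 6-7 in different colours. slam drops from 2372 and 1669 CPM to about 2 CPM, and in most of the rises the stage 5 point of replicate 1 lies below that of replicate 2.

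The genes of the Elba insulator complex, which acts at chromatin boundaries of the early embryo, fell with them. Elba3 went from 335 and 216 CPM to 2.0 and 2.52 CPM, Elba1 from 531 and 363 CPM to 13.0 and 13.6 CPM, and Elba2 from 914 and 657 CPM to 58.9 and 55.3 CPM. All 3 were higher in replicate 1 than in replicate 2 at stage 5, and no late library overlapped an early one. On the log2 scale Elba3 fell by 6.93 (SE 0.252), Elba1 by 5.07 (SE 0.31) and Elba2 by 3.78 (SE 0.139), with edgeR adjusted p values of 1.84e-08, 1.32e-05 and 3.3e-10.

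The other genes with the largest falls have mixed or little known roles. CG43725, CG15382, CG13711, CG15876 and CG43184, which the annotation names only by number, stood between 27.6 and 185 CPM at stage 5 and between 0.351 and 3.64 CPM at stage 6-7, and their log2 changes ran from -7.93 to -4.96. CG15382 lies antisense to exons of aop, and the strand setting of the counting is not given in the sources used here. mol, which encodes a maturation factor of the Duox oxidase, fell by 4.87 and the zinc transporter gene ZnT49B by 5.11 on the log2 scale. Edc3, an activator of mRNA decapping, went from 171 and 166 CPM to 6.47 and 6.19 CPM. Its replicates lay close together at both stages, and its fall of 4.73 had the smallest error of the 14 (SE 0.115, edgeR adjusted p = 9.75e-12).

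Genes of mitotic control moved in both directions. Z600, also known as frühstart, which holds back mitosis in the blastoderm, stood at 391 and 232 CPM at stage 5, then 2.19 and 2.70 CPM at stage 6-7. Both early libraries lay far above the late ones, and Z600 fell by 7.00 on the log2 scale (SE 0.357, edgeR adjusted p = 4.85e-06). Its exons overlap those of gdl, so some reads may belong to that gene. In heterozygotes the change of Z600 was -4.16, and the difference between genotypes was not called (edgeR adjusted p = 0.131). trbl, which promotes the breakdown of String protein, fell by 1.39, from 416 and 429.6 CPM to 166 and 157 CPM.

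The Cdc25 phosphatase gene stg (string), which triggers the patterned mitoses after cellularization, moved the opposite way. It stood at 38.5 and 59.1 CPM at stage 5, then 345 and 361 CPM at stage 6-7. The late libraries lay together above both early ones, and stg rose by 2.85 on the log2 scale (SE 0.232, edgeR adjusted p = 1.81e-05). fzr, an activator of the anaphase-promoting complex, rose by 0.92. Of the 12 tested genes for the timing of the early zygotic cycles and chromatin, 3 rose and 6 fell; without replicate 1 of stage 5, 3 rose and 9 fell.

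RNAs known as maternal fell more often than they rose, though not as a class. Of 14 tested maternal mRNA regulators, 10 fell and none rose, with a median of -0.57. Of 11 germ plasm and pole cell genes, 6 fell and 3 rose, and of 13 maternal cell cycle regulators, 4 fell and 4 rose. twe, the maternal Cdc25 gene, went from 30.9 and 21.8 CPM to 1.29 and 1.23 CPM, with no overlap, and fell by 4.38 on the log2 scale (SE 0.222, edgeR adjusted p = 2.96e-09).

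Several abundant maternal transcripts fell by a smaller factor. wisp, a cytoplasmic poly(A) polymerase of the egg, went from 752 and 645 CPM to 105 and 122 CPM, a fall of 2.62. AGO3, a Piwi-family Argonaute of the germ line, went from 264 and 248 CPM to 49.9 and 59.7 CPM, a fall of 2.22, while its partner aub fell by 1.18. The translational repressor pum went from 113 and 101 CPM to 28.3 and 32.0 CPM, a fall of 1.83. In each of these the replicates of a stage differed far less than the stages.

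The localised determinants stood at a few CPM in these whole embryos. bcd, the anterior determinant, stood at 3.75 and 2.04 CPM at stage 5 and 1.11 and 0.763 CPM at stage 6-7, a fall of 1.60 on the log2 scale. osk, which assembles germ plasm, stood at 5.84 and 3.90 CPM and then at 1.89 and 1.88 CPM, a fall of 1.36. swa, needed to place bcd RNA, fell by 2.37. plu, a partner of the Png kinase that drives the first cycles, fell by 1.23. cup and BicC are listed at 0 and were not tested.

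The segmentation hierarchy changed by tier: most gap and pair-rule genes fell, and most segment polarity and Hox genes rose. Of 12 gap genes, 9 fell and 1 rose, with a median log2 change of -1.15, and of 8 pair-rule genes, 6 fell and 1 rose, with a median of -0.44. Of 9 tested segment polarity genes, 8 rose and 1 fell (median 1.34), and of 8 Hox genes, 7 rose and none fell (median 2.02). The median over all tested genes was -0.002. With library totals alone 4 pair-rule genes fell in place of 6, and no segment polarity gene fell.

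Among the gap genes, hb (hunchback) went from 194 and 187 CPM to 54.5 and 49.0 CPM and fell by 1.88 (SE 0.107, edgeR adjusted p = 7.78e-09). tll (tailless), a terminal gap gene, went from 101 and 75.7 CPM to 24.3 and 20.4 CPM and fell by 1.98. The trunk gap genes kni and gt fell by 1.29 and 1.36, and the terminal gap gene hkb by 1.31. In all 5 the late libraries lay below the early ones. The exception was slp1, a forkhead gene that is a gap gene in the head and later acts in every segment, which went from 78.0 and 102 CPM to 268 and 256 CPM and rose by 1.54.

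The pair-rule genes kept much of their RNA. hry (hairy), a primary pair-rule repressor, went from 284 and 262 CPM to 106 and 108 CPM, and eve from 138 and 123 CPM to 61.0 and 71.7 CPM. The stages did not overlap for either, and hry fell by 1.35 and eve by 0.98 on the log2 scale. ftz, a later-acting homeobox pair-rule gene, fell by only 0.49. slp2, the neighbour of slp1, was the pair-rule gene that rose, by 1.30.

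The segment polarity gene en (engrailed), which marks the posterior compartment, was the second largest rise among genes that averaged 5 CPM or more. It stood at 3.38 and 12.0 CPM at stage 5, then 118 and 113 CPM at stage 6-7. The early libraries differed by more than 3-fold, yet both lay far below the late ones, and en rose by 3.87 on the log2 scale (SE 0.578, edgeR adjusted p = 0.00391). The rise was 3.26 without replicate 1 of stage 5 and 5.10 without replicate 2.

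The other segment polarity genes moved with en. hh (hedgehog), the ligand made by the engrailed cells, went from 5.61 and 9.21 CPM to 56.6 and 52.0 CPM and rose by 2.86 (SE 0.179, edgeR adjusted p = 3.14e-08). gsb, a Pax gene of the segment, went from 3.31 and 9.15 CPM to 63.0 and 58.3 CPM and rose by 3.25. mid, a T-box gene, went from 8.48 and 22.1 CPM to 138 and 131 CPM and rose by 3.12. In all 3 replicate 1 was the lower early library. Without replicate 2 of stage 5 the rise of gsb was 4.21 and that of mid 4.0. With a replicate block within stage neither gsb (edgeR adjusted p = 0.0633) nor mid (0.0506) was called. The Wingless receptor gene fz2 rose by 1.34 and the Hedgehog effector gene ci by 0.68, while ptc, the Hedgehog receptor, fell by 0.35 and lost that call with library totals alone (-0.15, edgeR adjusted p = 0.28), without replicate 2 of stage 5 (-0.18, edgeR adjusted p = 0.113) and without replicate 2 of stage 6-7 (-0.29, edgeR adjusted p = 0.0951).

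Hox genes of both complexes rose. lab, the most anterior, was barely expressed at stage 5, with 0.595 and 0.531 CPM, and stood at 6.72 and 6.37 CPM at stage 6-7. Antp, a thoracic Hox gene, went from 24.7 and 33.7 CPM to 130.1 and 127 CPM, and Abd-B, the most posterior, from 9.0 and 12.0 CPM to 57.8 and 50.4 CPM. None of these overlapped between stages, and lab rose by 3.54 (SE 0.296), Abd-B by 2.36 (SE 0.147) and Antp by 2.13 (SE 0.187), with edgeR adjusted p values of 2.38e-07, 1.77e-08 and 3.02e-06. Exons of Antp overlap those of CG46458. Scr rose by 2.66, abd-A by 1.90, Ubx by 1.56 and Dfd by 1.15.

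**Figure D3:**
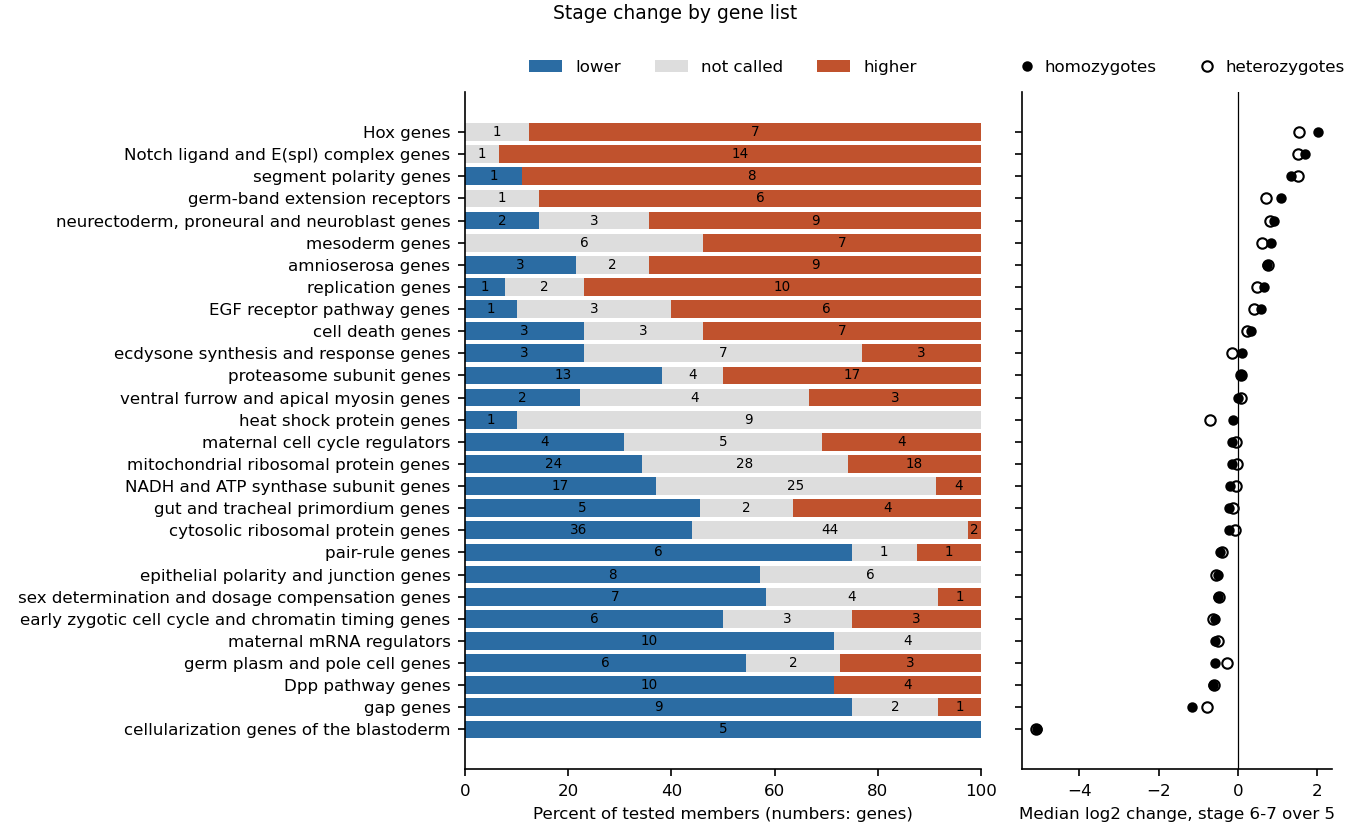
The left panel gives, for each gene list, the percent of tested members called lower, not called and called higher from stage 5 to stage 6-7 in homozygotes, with the number of genes printed on each bar. The right panel gives the median log2 change of the list in homozygotes (filled) and heterozygotes (open): Hox genes lie at 2.02 and cellularization genes at -5.07.

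Of 13 tested mesoderm genes, 7 rose and none fell, with a median of 0.83. twi (twist), which specifies the mesoderm, stood at 316 and 309.9 CPM at stage 5, then 344 and 352 CPM at stage 6-7, a log2 difference of 0.15 that was not called (edgeR adjusted p = 0.131) but passed with library totals alone (0.35, edgeR adjusted p = 0.00304).

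Mef2, the muscle transcription factor, went from 8.07 and 12.1 CPM to 97.3 and 87.7 CPM, and tin (tinman), required for the heart, from 4.35 and 10.5 CPM to 84.1 and 76.6 CPM. zfh1, a zinc-finger homeobox gene of the mesoderm, went from 11.1 and 26.7 CPM to 212 and 213 CPM. In all 3 the late replicates agreed closely and replicate 1 was the lower early library. tin rose by 3.41 (SE 0.376), zfh1 by 3.48 (SE 0.456) and Mef2 by 3.18 (SE 0.255), with edgeR adjusted p values of 0.000311, 0.00218 and 6.79e-06. Without replicate 2 of stage 5 the rise was 4.22 for tin and 4.27 for zfh1; exons of zfh1 overlap an antisense RNA. The FGF ligand gene ths rose by 1.51, the FGF signal transducer gene stumps by 0.83 and wntD, which feeds back on Dorsal, by 1.63.

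Of 9 tested genes for ventral furrow formation and apical myosin, 3 rose and 2 fell, with a median of 0.00. fog, the secreted signal for apical constriction, went from 26.0 and 30.6 CPM to 69.8 and 59.8 CPM and rose by 1.19, and T48, an apical membrane protein gene of the same process, rose by 1.05. cta, the G protein subunit downstream of fog, went from 46.3 and 43.6 CPM to 20.6 and 19.8 CPM and fell by 1.15. The early and late libraries of these genes did not overlap.

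Surface receptors that orient germ-band extension rose. Of 7 tested, 6 rose and none fell, with a median of 1.10. Toll-6 stood at 10.8 and 23.7 CPM at stage 5, then 254 and 235 CPM at stage 6-7, and Toll-7 at 1.15 and 1.68 CPM and then at 10.3 and 12.4 CPM. The late libraries lay far above the early ones, and Toll-6 rose by 3.81 (SE 0.421, edgeR adjusted p = 0.000954) and Toll-7 by 2.98. Toll-6 rose by 4.51 without replicate 2 of stage 5. The adhesion receptor genes trn, Ten-m and Cirl rose by 1.32, 1.10 and 0.99.

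Epithelial polarity and junction genes went the other way, by less. Of 14 tested, 8 fell and none rose (median -0.49); with library totals alone 7 fell and 2 rose. shg, which encodes E-cadherin, went from 976 and 1219 CPM to 588 and 538 CPM, and crb (crumbs), the apical determinant, from 651 and 776 CPM to 273 and 248 CPM. Neither overlapped between stages, and crb fell by 1.45 (SE 0.105) and shg by 0.96 (SE 0.105), with edgeR adjusted p values of 6.33e-08 and 2.92e-06. scrib, a basolateral polarity gene, fell by 0.58.

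Over the same interval CadN, which encodes N-cadherin, went from 8.51 and 24.8 CPM to 168 and 181 CPM. Both late libraries exceeded both early ones, and CadN rose by 3.37 (SE 0.58, edgeR adjusted p = 0.00725). The rise was 2.80 without replicate 1 of stage 5 and 4.37 without replicate 2. With a replicate block within stage it was not called (edgeR adjusted p = 0.0582).

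Of 14 tested neurectoderm, proneural and neuroblast genes, 9 rose and 2 fell, with a median of 0.92. Dr, which specifies the dorsal column, went from 1.93 and 5.55 CPM to 43.8 and 41.3 CPM, and ind, which specifies the intermediate column, from 11.3 and 19.5 CPM to 41.8 and 42.2 CPM. Replicate 1 was the lower early library in both, and the late libraries lay close together. Dr rose by 3.47 (SE 0.399, edgeR adjusted p = 0.00033) and ind by 1.44. The rise of Dr was 2.93 without replicate 1 of stage 5 and 4.47 without replicate 2. sim, the master gene of the midline, rose by 2.45, or 3.23 without replicate 2 of stage 5. The proneural gene ac rose by 2.41, from 3.35 and 3.13 CPM to 18.4 and 16.0 CPM.

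Genes of the Enhancer of split and Bearded families rose, while the Notch receptor gene itself was not called in the main fit. Of 15 tested genes among Notch, its ligand and these families, 14 rose and none fell, with a median of 1.70. The exception was the Notch gene, N, which changed by 0.25 (edgeR adjusted p = 0.276), or by -0.02 without replicate 1 of stage 5. N was called, however, with a replicate block and with a replicate block within stage. E(spl)m2-BFM, a Bearded-family gene, was the largest rise among genes that averaged 5 CPM or more, from 0.260 and 1.27 CPM to 11.7 and 13.0 CPM. Its early libraries differed even more than those of en, both below the late ones, and it rose by 3.92 (SE 0.402, edgeR adjusted p = 9.68e-06), by 3.27 without replicate 1 of stage 5 and by 5.56 without replicate 2. E(spl)malpha-BFM went from 5.80 and 7.35 CPM to 40.3 and 43.5 CPM and rose by 2.66, and the repressor gene E(spl)m5-HLH rose by 2.06. E(spl)mgamma-HLH stood at 0.149 and 0.236 CPM, then at 7.18 and 7.22 CPM; its call (edgeR adjusted p = 0.00313) was lost without replicate 1 of stage 5 (0.0523).

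The remaining large rises were dally, a glypican that shapes Wingless and Dpp gradients, ttk, a BTB-domain repressor, CrebA, which drives secretory pathway genes, Srr, CG5171 and CG7255. dally went from 2.60 and 5.55 CPM to 52.3 and 60.8 CPM and rose by 3.76 (SE 0.374, edgeR adjusted p = 0.000136). CrebA went from 2.01 and 3.19 CPM to 22.1 and 27.4 CPM and rose by 3.23. The others rose by 3.25 to 3.30 on the log2 scale. Exons of Srr overlap FER on the opposite strand, as those of twe and tkv do other antisense genes in part, and those of osk a noncoding RNA. Without replicate 2 of stage 5 the rise was 4.45 for dally, 4.13 for ttk and 4.23 for CG7255. Without replicate 1 that of CG7255 was 2.76.

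Among Dpp pathway genes, measured in whole embryos, the second BMP ligand and the extracellular modulators fell while the type I receptors rose. Of 14 tested pathway genes, 10 fell and 4 rose, with a median of -0.62. Without replicate 1 of stage 5, or without replicate 1 of stage 6-7, 2 rose. scw, the second BMP ligand of the early embryo, went from 85.2 and 65.5 CPM to 6.39 and 3.82 CPM. The early libraries lay more than 10-fold above the late ones, and scw fell by 3.88 (SE 0.269, edgeR adjusted p = 2.71e-06).

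The extracellular modulators tsg, tld and sog, which shuttle BMP ligand dorsally and release it there, fell by 2.08, 1.37 and 0.64. Mad, the signal transducer, went from 172 and 151 CPM to 40.2 and 42.4 CPM and fell by 1.97, and the type II receptor gene put fell by 1.31. tkv, the main Dpp type I receptor gene, went from 75.9 and 84.3 CPM to 200.0 and 195 CPM and rose by 1.30 (SE 0.135, edgeR adjusted p = 3.15e-06), and the second type I receptor gene sax rose by 0.73. dpp itself went from 78.0 and 81.3 CPM to 63.2 CPM in both late libraries, a fall of 0.33 (edgeR adjusted p = 0.0146) that was not called with library totals alone (-0.14) or without either stage 6-7 replicate (edgeR adjusted p = 0.0804 and 0.081).

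Most genes of the amnioserosa list rose in these zen homozygotes: 9 of 14 rose and 3 fell, zen among them, with a median of 0.73 against 0.76 in heterozygotes. The summed level of the 14 genes went from 1203 and 1048 CPM to 1161 and 1096 CPM in homozygotes. In heterozygotes it went from 1467 and 1603 CPM to 1771 and 1914 CPM, and this difference between genotypes was not tested. Such a sum is set mostly by its most abundant members, and it includes zen itself, which fell in homozygotes. pnr, a GATA factor of the dorsal ectoderm, went from 7.21 and 12.9 CPM to 88.6 and 93.2 CPM, and ush, its cofactor, from 32.1 and 29.9 CPM to 100.2 and 96.8 CPM. Neither overlapped between stages, and pnr rose by 3.16 (SE 0.202) and ush by 1.67 (SE 0.111), with edgeR adjusted p values of 2.24e-07 and 3.02e-08. The T-box genes Doc1, Doc2 and Doc3 rose by 0.65, 0.80 and 0.95, and peb, which is needed to keep the amnioserosa, by 1.22.

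Other members of the list rose by smaller amounts or from low levels. Ance, a peptidase gene of the dorsal side, went from 39.1 and 39.9 CPM to 51.3 and 56.9 CPM and rose by 0.45, against a change of 0.94 in heterozygotes (edgeR adjusted p of the difference = 0.265). C15, a homeobox gene of the amnioserosa, stood near 1 CPM at both stages (1.04 and 0.650, then 1.94 and 1.23) and rose by 0.94 (edgeR adjusted p = 0.0224), a call lost without replicate 2 of stage 5 (0.168) or replicate 1 of stage 6-7 (0.228). In heterozygotes C15 went from 4.03 and 4.23 CPM to 13.1 and 18.3 CPM, a change of 1.93, and the difference was not called (edgeR adjusted p = 0.635). zen2, the neighbour of zen, rose by 1.19, from 6.47 and 7.20 CPM to 16.5 and 14.7 CPM.

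The TNF ligand gene egr (eiger) fell. It stood at 113 and 54.9 CPM at stage 5, then 15.1 and 14.1 CPM at stage 6-7. The early libraries differed 2-fold, both above the late ones, and egr fell by 2.52 on the log2 scale (SE 0.349, edgeR adjusted p = 0.0013), or by 1.92 without replicate 1 of stage 5. In heterozygotes the change of egr was -0.98, and the difference between genotypes was not called (edgeR adjusted p = 0.584).

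In the EGF receptor pathway 6 of 10 tested genes rose and 1 fell, with a median of 0.58. The ETS effector gene pnt went from 23.2 and 31.0 CPM to 89.0 and 86.1 CPM and rose by 1.69 (SE 0.152, edgeR adjusted p = 7e-07). The ligand gene spi rose by 0.90 and sty, a feedback inhibitor, by 1.29.

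Of 11 tested gut and tracheal primordium genes, 5 fell and 4 rose; without replicate 1 of stage 5, 6 fell and 2 rose, and without replicate 1 of stage 6-7, 2 rose. bnl, the FGF ligand of the trachea, rose by 2.03, from 2.71 and 3.84 CPM to 13.5 and 13.6 CPM. Of 12 sex determination and dosage compensation genes, 7 fell and 1 rose. Of 13 ecdysone synthesis and response genes, 3 rose and 3 fell. ftz-f1, a nuclear receptor gene loaded by the mother, went from 28.1 and 16.9 CPM to 1.65 and 1.73 CPM and fell by 3.73 (SE 0.245, edgeR adjusted p = 9.84e-08), and its exons overlap a long noncoding RNA. Blimp-1, an ecdysone-regulated repressor, fell by 1.30, and sad, an enzyme of ecdysone synthesis, rose by 1.54.

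Replication genes rose: 10 of 13 were called higher and 1 lower, with a median of 0.65. Mcm2, part of the replicative helicase, went from 145 and 175 CPM to 404 and 393 CPM and rose by 1.32 (SE 0.0949, edgeR adjusted p = 6.37e-08). RnrS, the small subunit of ribonucleotide reductase, rose by 1.58 and Orc2, of the origin recognition complex, by 1.86. Cdc6, which loads the helicase, was the exception, going from 359 and 343 CPM to 203 and 215 CPM and falling by 0.75.

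Of 13 cell death genes, 7 rose and 3 fell, and 4 rose without replicate 2 of stage 6-7. rpr (reaper), an activator of apoptosis, went from 8.29 and 10.8 CPM to 32.1 and 26.9 CPM and rose by 1.62 (SE 0.178, edgeR adjusted p = 3.72e-06). bsk, the JNK gene, rose by 1.24. Dronc, the initiator caspase, went from 147 and 126 CPM to 17.4 CPM in both late libraries, with no overlap, and fell by 2.97 (SE 0.132, edgeR adjusted p = 7.64e-10).

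Housekeeping complexes moved little, and their calls depended on scale and library. Of 82 tested cytosolic ribosomal protein genes, 36 fell and 2 rose, with a median of -0.23. With library totals alone 1 fell and the median was -0.03, without replicate 1 of stage 5 again 1 fell, and without replicate 2 of stage 5 67 fell. Without replicates 1 and 2 of stage 6-7 in turn, 2 and 6 fell. Of 46 NADH dehydrogenase and ATP synthase subunit genes, 17 fell and 4 rose, against 6 and 7 with library totals alone, and 10, 11 and 9 fell without replicate 1 of stage 5 and replicates 1 and 2 of stage 6-7.

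Other complexes were split among their own members. Of 70 mitochondrial ribosomal protein genes, 24 fell and 18 rose, against 11 and 24 with library totals alone, and 15 and 12 fell without replicate 1 of stage 5 and replicate 2 of stage 6-7. mRpL38 and mRpS35 rose by 1.69 and 1.42 and mRpL24 fell by 1.01. Of 34 proteasome genes, 17 rose and 13 fell. Prosalpha4, a subunit of the core, went from 499 and 388 CPM to 118 and 111 CPM and fell by 1.96, and Prosbeta1 fell by 1.16. Rpn8 and Rpn11, of the lid, went from 31.2 and 31.1 CPM to 79.1 and 76.0 CPM and from 54.0 and 58.6 CPM to 122 and 117 CPM, and rose by 1.32 and 1.08. Of 111 replication-dependent histone genes, which are near-identical copies, only 1 had enough counts to enter the test, and it was not called.

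Of 10 heat shock protein genes 1 fell and none rose. Hsp68, a stress-inducible member, stood at 61.1 CPM in replicate 1 of stage 5 but at 8.09 CPM in replicate 2, with 15.4 and 20.3 CPM at stage 6-7. The late values lay between the early ones and no change was called (edgeR adjusted p = 0.611).

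Markers of tissues that differentiate later, or that surround the egg, gave few calls. The 14 follicle cell and eggshell markers summed to between 1.77 and 2.60 CPM in each homozygous library, with 6 of them at 0 in all 4, and the 9 muscle markers in the tables to between 6.38 and 9.13 CPM with no call. Of 10 hemocyte markers 8 were tested and 5 rose (3 without replicate 1 of stage 5, and 3 without replicate 2 of stage 6-7), and their sum went from 199 and 241 CPM to 381 and 386 CPM. Most of that sum came from early fate regulators that act elsewhere in the embryo too, such as ush, while NimC1 and eater, receptors of mature hemocytes, were at 0. Among them gcm, a glial and hemocyte fate gene, rose by 1.58, from 6.62 and 12.6 CPM to 27.0 and 31.4 CPM. Hml, a hemocyte gene, rose by 2.52, from 0.855 and 1.86 CPM to 8.20 and 7.78 CPM. The rise of Hml was 2.09 without replicate 1 of stage 5 and 3.23 without replicate 2. Neuronal markers summed to between 104 and 184 CPM, nearly all from elav, and cuticle markers to between 200.2 and 308 CPM, nearly all from grh, which fell. The change of elav was 0.39 on the log2 scale and was not called by edgeR (adjusted p = 0.12), but it was called with library totals alone (0.58, edgeR adjusted p = 0.0368), with no low-count filter (edgeR adjusted p = 0.0071) and by DESeq2 (adjusted p = 0.0393).

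Genes that fell far were more often without introns than the rest. Of 350 placed genes that fell at least 4-fold, 74 (21.1%) had no intron, against 12.0% of all placed tested genes and 13.6% (43 of 317) of those that rose at least 4-fold. For genes that averaged 10 CPM or more the shares were 16.2% (25 of 154), 8.34% and 7.81% (5 of 64). At that level the median gene span was 4039 bp for the large falls, 8661 bp for the large rises and 2973 bp for all genes. No test was made of these shares.

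**Figure D4:**
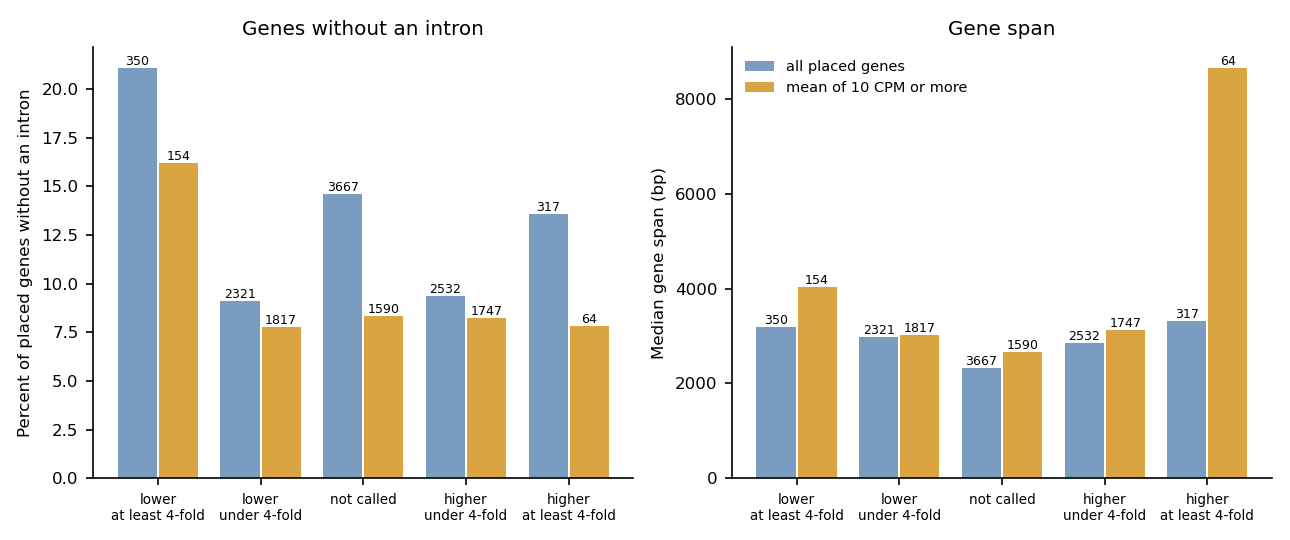
Bars give the percent of genes without an intron (left) and the median gene span in bp (right) in each class of stage change, for all placed tested genes and for those that averaged 10 CPM or more, with the number of genes above each bar. The share without an intron was highest among genes that fell at least 4-fold (21.1%), and the median span was highest among well expressed genes that rose at least 4-fold (8661 bp).

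Chromosome arms had similar shares of calls: called rises made up 29.1% to 33.0% and called falls 26.9% to 31.6% of tested genes on the arms of chromosomes X, 2 and 3. On the small chromosome 4, with 87 tested genes, 19.5% rose and 32.2% fell.

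The stage change of homozygotes followed that of heterozygotes, with which it shares no library. Over the 9360 tested genes the log2 changes had a Spearman correlation of 0.881 and a Pearson correlation of 0.87, a description across genes, which are not independent replicates. Of the 5629 genes called in homozygotes, 4567 (81.1%) were called in the same direction in heterozygotes, which were 88.8% of heterozygous calls, and 10 were called in opposite directions. Of the 677 homozygous changes of at least 4-fold, 663 had the same sign in heterozygotes and 116 were not called there.

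Genes with large changes in heterozygotes had medians of like size in homozygotes, set in part by the early library that stood apart. Among 159 genes called at least 4-fold higher in heterozygotes, the median was 2.57 in homozygotes against 2.42 in heterozygotes, 2.41 without replicate 1 of stage 5 and 3.19 without replicate 2. Among 284 genes called at least 4-fold lower there, it was -2.47 against -2.54. For the 159 genes the median log2 ratio of replicate 1 to replicate 2 was -0.21 at homozygous stage 5 and -0.32 at heterozygous stage 6-7. Both sets of genes were chosen on the heterozygous libraries, so their heterozygous medians are a description.

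**Figure D5:**
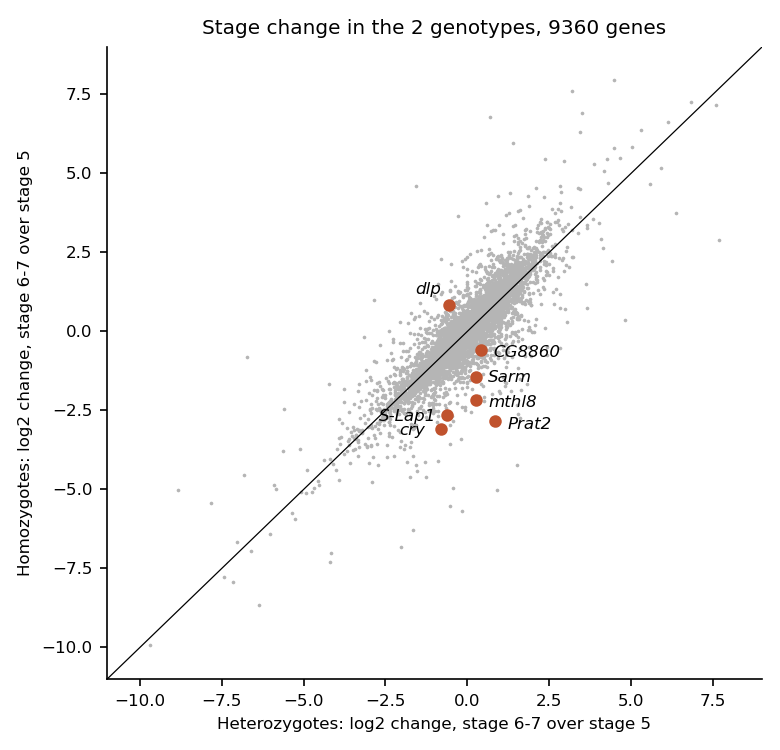
Each point is 1 of 9360 tested genes, with its log2 stage change in heterozygotes on the x axis and in homozygotes on the y axis, and the line marks equal change. The 7 named genes are those whose change differed between genotypes in the interaction test: dlp lies above the line and the other 6 lie below it.

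The difference of the stage change between genotypes was called for 7 genes (0.0748% of those tested), 1 (0.0107%) with the higher change in homozygotes and 6 (0.0641%) with the lower. At an unadjusted p under 0.05 there were 629, and DESeq2 called 57. Among the fits that left out 1 library, the count moved most without replicate 2 of homozygous stage 5, where 241 genes were called with the higher and 55 with the lower change in homozygotes; without replicate 1 they were 5 and 9, and without replicate 2 of heterozygous stage 6-7, 9 and 5. Of the 7, 5 lie on chromosome arm 3L, cry on 3R and CG8860 on 2R; the genotypes carry different copies of chromosome 3, zen[7] or the TM3 balancer.

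dlp (dally-like), a glypican of Wingless and Hedgehog signalling, went in opposite directions. In homozygotes it stood at 38.6 and 37.7 CPM at stage 5, then 64.6 and 72.9 CPM at stage 6-7, a rise of 0.85 on the log2 scale. In heterozygotes it went from 50.9 and 43.2 CPM to 29.4 and 34.5 CPM, a fall of 0.56. The homozygous libraries were thus below the heterozygous ones at stage 5 and above them at stage 6-7, and the difference in change was 1.41 (SE 0.167, edgeR adjusted p = 0.00296).

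mthl8, of the Methuselah-like receptor family, went from 10.4 and 6.5 CPM to 1.59 and 2.11 CPM in homozygotes and from 28.3 and 30.8 CPM to 36.1 and 35.1 CPM in heterozygotes. Sarm, an NADase of axon degeneration, went from 9.40 and 9.68 CPM to 3.78 and 3.17 CPM in homozygotes and from 20.1 and 24.2 CPM to 24.8 and 28.3 CPM in heterozygotes. For both genes every homozygous library lay below every heterozygous one, at stage 5 as well as at stage 6-7. The difference in change was -2.45 for mthl8 (SE 0.275) and -1.72 for Sarm (SE 0.205), each with an edgeR adjusted p of 0.00296.

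cry, the circadian photoreceptor cryptochrome, went from 10.8 and 6.61 CPM to 1.03 and 0.998 CPM in homozygotes and from 26.3 and 27.8 CPM to 15.7 and 15.3 CPM in heterozygotes. It was lower in homozygotes at both stages, and its change was -3.09 against -0.80, a difference of -2.29 (SE 0.296, edgeR adjusted p = 0.0055); its exons overlap a long noncoding RNA. The call was lost without either heterozygous stage 5 library (edgeR adjusted p = 0.0536 and 0.055).

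Prat2 and CG8860, like dlp, were called in opposite directions in the genotypes. S-Lap1, a leucyl aminopeptidase gene, went from 4.54 and 3.75 CPM to 0.755 and 0.558 CPM in homozygotes and from 14.3 and 15.3 CPM to 8.71 and 10.7 CPM in heterozygotes (difference -2.03, edgeR adjusted p = 0.0155). Prat2, of purine synthesis, went from 0.929 and 0.531 CPM to 0.108 and 0.0880 CPM in homozygotes and from 1.74 and 1.83 CPM to 3.33 and 3.13 CPM in heterozygotes, changes of -2.82 and 0.86 (difference -3.68, edgeR adjusted p = 0.0239). CG8860 went from 21.9 and 22.6 CPM to 14.2 and 15.2 CPM in homozygotes and from 15.3 and 15.4 CPM to 19.7 and 21.5 CPM in heterozygotes, changes of -0.60 and 0.43 (difference -1.03, edgeR adjusted p = 0.0239). Of the 8 fits that each left out 1 library, the call held in 5 for S-Lap1, 2 for Prat2 and 3 for CG8860, with adjusted p up to 0.147 for S-Lap1 and Prat2 and 0.163 for CG8860, while those of mthl8, dlp and Sarm held in all 8.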

How the data were processed

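Total RNA of pooled embryos was sequenced as 100 bp paired reads with 200 bp inserts, per the labels' protocols. The authors deposited whole-number counts per gene for each library, not normalized. Per the submitters' processing notes, reads went through STAR and HTSeq; versions, build, annotation and strandedness are not given in the sources used. The 5 summary lines that name no gene held 12.89% to 18.22% of each total and were left out. Gene IDs were looked up in the BDGP6.54 annotation of Ensembl 115 for symbols and gene structure (17188 matched, 280 not), and no coordinates are printed.

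Counts were tested with edgeR 4.0.16 in R 4.3.3 (TMM, filterByExpr with a minimum count of 10, robust quasi-likelihood fit) with 1 mean per group over all 8 libraries, which share the estimate of the spread. The contrasts were stage 6-7 minus stage 5 in homozygotes, the same in heterozygotes, and their difference, with Benjamini-Hochberg adjustment over 9360 genes. On simulated counts with known changes, the fit for the homozygous stage change (9179 genes) found 60% of the 1.5-fold and 90% of the 2-fold changes. It found 96% of the 3-fold and 98% of the 4-fold changes, with 13 false calls among 8979 genes left as they were. Every simulated gene had the same spread, no library stood apart and far fewer genes changed than were called here. The rates may therefore be too high for the real libraries. Alternatives were other scalings, filters, DESeq2 1.42.0, limma-voom (limma 3.58.1), glmTreat, replicate blocks, the homozygous libraries alone and leaving out each library. The numbers 1 and 2 are not given as pairing libraries. Same-numbered libraries of the same stage or genotype had deviations that correlated by -0.062 to 0.004, and those that shared neither were not compared.

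The genes named are the 14 largest rises and falls with a symbol, a mean of at least 5 CPM and no overlap between stages, up to 5 members of each of 34 lists by p with further members by their values, zen, and the genes called in the difference between genotypes. Genes with the highest CPM per kb of exon, and some that came on or went off between the stages, are named as well. The members and lists were chosen with earlier results of these data known, and lists were not tested as sets. The result of 1 list member is not reported here. Counting error is small for well expressed genes at these totals, and there it is the spread between 2 pools a group that limits precision. For genes with a few counts at 1 stage counting error matters too, as for Prat2, with 4 and 3 counts at homozygous stage 6-7.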

Additional observations from a re-analysis of the deposited data

Results flagged for a closer look

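The stage change differed between genotypes, by the edgeR test of the difference itself, for 7 genes, which are given here as homozygous minus heterozygous log2 change. It was -2.45 for mthl8, -1.72 for Sarm, -2.29 for cry, -2.03 for S-Lap1, -3.68 for Prat2 and -1.03 for CG8860, all lower in homozygotes, and 1.41 for dlp, the one that was higher. Those of mthl8, dlp and Sarm were called in all 8 fits that left out a library. Groups of 2 libraries are too small for a test of an outlying value.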

How the results depend on the processing

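The counts of rises and falls in homozygotes stayed within 1.5 times under every alternative except a test against a 2-fold change (glmTreat), which called 611 higher and 589 lower, since small changes no longer count. Leaving out each library in turn gave 2444 to 2939 rises and 2165 to 2782 falls, and 298 to 422 rises and 314 to 422 falls of at least 4-fold. Requiring at least 10 CPM in 2 libraries left 92 rises and 164 falls of at least 4-fold, because fewer genes were tested. The tally of named genes that follows is not complete. It leaves out N and CG13427, the latter named for its level, and does not cover all the ribosomal protein genes named for theirs. The change of CG13427 was not called (0.06, edgeR adjusted p = 0.51), though it was with library totals alone. Of 147 genes tested and named, 144 were called; 7 of these lost the call under 1 or more alternatives other than glmTreat (42 lost it there), and the value of Hsp68, which was not called, was -0.94 and ranged from -1.77 to 1.13 without one or the other stage 5 replicate. List counts of 2 genes or fewer moved by at most 2 genes when a homozygous library was left out.

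The difference between genotypes (1 higher, 6 lower) depended most on the settings: 78 and 45 genes with no filter on low counts, 32 and 25 with DESeq2, 1 and 2 with limma-voom, 25 and 13 with a replicate block, 55 and 32 with a replicate block within stage, and 0 and 0 with glmTreat, against 629 genes at an unadjusted p under 0.05 in the edgeR test of any difference. Leaving out each library gave 1 to 241 higher and 2 to 55 lower. The cause was not tested. Same-numbered libraries that shared a stage or a genotype had deviations that correlated by -0.062 to 0.004. Those that shared neither were not compared, and the numbers were not taken as pairs. With the replicate block 2954 genes rose and 2812 fell. N, not called in the main fit, was called with either block. With the replicate block within stage CadN (edgeR adjusted p = 0.0582), gsb (0.0633) and mid (0.0506) were not called, while elav was (0.00043, and 0.017 with the plain block). With 2 pools a group, changes under 2-fold rest on little replication.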

Other observations

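Some genes passed between near absence and clear expression. In homozygotes 7 genes were under 1 CPM in both stage 5 libraries and at 5 CPM or more in both stage 6-7 libraries, and 11 genes did the reverse; both sets were picked after their values were seen. Besides lab, CG5171 and E(spl)mgamma-HLH, the genes that came on were Sox21a, a Sox-family transcription factor gene, CNT2, a nucleoside transporter gene, CG32053 and CG34025. Sox21a stood at 0.0372 and 0.148 CPM at stage 5, then 5.45 and 6.05 CPM at stage 6-7, CNT2 at 0.223 and 0.0591 CPM and then at 7.04 and 8.63 CPM. CG32053 went from 0.186 and 0.531 CPM to 6.74 and 10.4 CPM and CG34025 from 0 and 0.236 CPM to 5.56 and 6.54 CPM.

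Among the genes that went off were, besides CG43725, CG15382 and CG13711, Fhos, a formin gene, which went from 7.32 and 6.20 CPM to 0.270 and 0.147 CPM and fell by 4.98 on the log2 scale. CG5704 went from 16.5 and 14.6 CPM to 0.890 and 0.998 CPM, and Nepl4, of the neprilysin-like peptidase family, from 12.2 and 10.7 CPM to 0.620 and 0.822 CPM. That all of these were apart in every library of the 2 stages follows from how they were picked.

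The most abundant RNAs per length were much the same at both stages. By CPM per kb of exon the 8 highest at stage 5 were mt:lrRNA, RpL41, RpL39, RpLP2, RpL23, eEF2, RpS18 and RpLP1, and at stage 6-7 alphaTub84B and CG13427 stood among the 8 in place of eEF2 and RpLP1. RpL41 was at 15562 and 13497 CPM per kb at stage 5 and at 11489 and 11860.1 at stage 6-7. mt:lrRNA, the large ribosomal RNA of the mitochondrion, ranged from 12547 to 19155.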
